A study of Homo sapiens with 9 samples.

Results

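The long noncoding RNAs of a sorafenib-resistance model were examined, namely 160 genes on 162 of the 9851 probe sets that carried 1 gene symbol, out of 9792 genes tested. They were chosen by name alone: symbols beginning with LINC (57 genes), ending in -AS1 or -AS2 (64, antisense), in -DT (19, divergent) or in -IT1 (10, intronic), 4 SNHG and 3 MIR host genes, and UCA1, HULC and MALAT1. H19 was not found under 1 symbol, the probe set of NEAT1 carried the symbol of a microRNA as well, and neither was used. Under current gene names 13 of the 160 carry another symbol and 9 of them would leave the set, such as ENO1-IT1, now listed as part of ENO1. LINC00152 and LINC00969 are now CYTOR and MIR570HG.

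Huh7 is a human hepatocellular carcinoma line. Huh7-R-A7 is a clone from 1 colony of the resistant pool, Huh7-R is that uncloned pool, and Huh7-S is the untreated parental line. Both resistant populations had received sorafenib, a kinase inhibitor, in weekly 10 µM pulses of 4 h over 6 weeks and then in doses that climbed to 6 µM in 0.1% DMSO, and were off the drug for 5 to 7 days before use. Each group had 3 transcriptome arrays, and the groups stand for 1 clone, 1 pool and 1 parental line. The descriptions of clone arrays 2 and 3 name other clones, so counts from clone array 1 alone are given as well.

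Long noncoding RNAs are transcribed and often spliced like messenger RNAs but code for no known protein. Many act where they are made, on neighbouring genes or on the transcript of the opposite strand, others in nuclear bodies or in the cytoplasm, and some serve mainly as precursors from whose introns small nucleolar RNAs or microRNAs are cut. HULC was named for its high level in liver cancer, UCA1 was described first in bladder carcinoma, and LINC00261 lies beside FOXA2, a transcription factor gene of endoderm and liver.

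Promoters are shown here for RNAs with large differences between the resistant and parental cells, because a reader may want to see what lies at their starts. Each runs from 250 bases before to 50 bases after the start listed by RefSeq (GRCh38.p14), on the strand of the gene. Capitals mark matches on either strand to TATAAA (the TATA box), CACGTG (the E-box), TGACGTCA (the cyclic AMP response element) and TGANTCA (the AP-1 site). They also mark CCGGAAGT (an ETS site), TGACCTTT (part of an HNF4 site) and ACGTG (the hypoxia-response core, which lies within CACGTG). EMC3-AS1 (chr3:9986643-9986942, plus strand), TMCC1-DT (chr3:129893621-129893920, plus strand) and LINC00261 (chr20:22578593-22578892, minus strand) were lower in both resistant populations. LINC00941 (chr12:30795431-30795730, plus strand) and LINC00654 (chr20:5504547-5504846, minus strand) were higher in both.
EMC3-AS1: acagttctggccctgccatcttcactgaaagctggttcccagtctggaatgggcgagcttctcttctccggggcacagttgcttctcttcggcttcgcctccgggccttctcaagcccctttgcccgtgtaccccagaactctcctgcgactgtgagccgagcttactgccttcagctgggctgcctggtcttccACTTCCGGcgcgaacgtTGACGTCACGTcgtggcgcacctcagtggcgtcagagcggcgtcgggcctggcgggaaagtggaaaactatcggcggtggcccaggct
TMCC1-DT: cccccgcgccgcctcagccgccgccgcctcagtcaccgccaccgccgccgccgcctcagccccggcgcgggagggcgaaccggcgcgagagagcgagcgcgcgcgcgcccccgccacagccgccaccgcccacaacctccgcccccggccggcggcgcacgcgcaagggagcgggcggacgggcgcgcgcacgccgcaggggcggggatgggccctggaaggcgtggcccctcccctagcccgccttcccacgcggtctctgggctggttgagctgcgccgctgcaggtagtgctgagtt
LINC00261: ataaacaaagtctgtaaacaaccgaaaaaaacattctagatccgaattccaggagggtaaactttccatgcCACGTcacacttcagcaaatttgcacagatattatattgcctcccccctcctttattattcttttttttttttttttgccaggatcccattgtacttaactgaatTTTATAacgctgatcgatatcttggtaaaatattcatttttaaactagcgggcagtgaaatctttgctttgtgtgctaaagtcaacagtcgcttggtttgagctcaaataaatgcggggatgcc
LINC00941: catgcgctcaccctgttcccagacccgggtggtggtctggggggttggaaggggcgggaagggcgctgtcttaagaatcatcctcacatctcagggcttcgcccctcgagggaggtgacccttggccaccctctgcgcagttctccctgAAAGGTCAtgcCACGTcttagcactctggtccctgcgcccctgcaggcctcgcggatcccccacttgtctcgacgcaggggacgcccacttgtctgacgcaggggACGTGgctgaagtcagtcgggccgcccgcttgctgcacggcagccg
LINC00654: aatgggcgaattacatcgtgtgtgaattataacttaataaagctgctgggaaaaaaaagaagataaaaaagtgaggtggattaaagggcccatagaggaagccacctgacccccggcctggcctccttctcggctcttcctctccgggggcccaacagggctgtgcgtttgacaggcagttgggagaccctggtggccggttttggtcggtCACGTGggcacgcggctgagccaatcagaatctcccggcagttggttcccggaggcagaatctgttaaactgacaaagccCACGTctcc
The promoter of EMC3-AS1 held the letters of an ETS site and of a cyclic AMP response element, and that of LINC00654 those of an E-box. In LINC00261 the letters TATAAA lay on the strand opposite to the gene. The promoter of TMCC1-DT, with 80.3% G and C, held none of the letters searched. Promoters were listed for 113 of the 160 genes. TGACGTCA was found in 2 of the 16 promoters of RNAs lower in both resistant populations and in none of the 8 of RNAs higher in both, against 4.42% of all 113 and 1.98% of the 27305 promoters in the table. ACGTG was found in 7 of the 16 and 2 of the 8, against 28.3% of the 113 and 21.6% of the table. The TATA box was found in 3 of the 16 and the ETS site in 2, against 12% and 4.44% of the table. The E-box and the AP-1 site were each found in 1 of the 16 and the HNF4 part in none, against 7.43%, 7.76% and 1.21% of the table. Of the 8, the TATA box, the E-box and the HNF4 part were each found in 1, and the ETS and AP-1 sites in none. These counts were not tested. They are descriptions of few promoters, and a match is not a bound site.

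Values are RMA signals on a log2 scale, on which the authors' methods take a level below 6 as noise. Group means below 6 were found for 24 RNAs in Huh7-R-A7 (15%), 22 in Huh7-R (13.8%) and 20 in Huh7-S (12.5%), against about 5% of all genes in each group. The deposited table held no probe set below 6 on more than 7 of the 9 arrays, so RNAs low on more arrays are not counted. Levels of single probe sets are not compared with each other, since signal depends on the probes.

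Parental array 1 stood apart. Its correlation with the other parental arrays was 0.977 and 0.976, against 0.997 between those, and values without it are given for UCA1, HULC, LINC00351, LINC00312, MALAT1, SH3BP5-AS1, PCNA-AS1, PITPNA-AS1 and ST8SIA6-AS1. Of the hepatocyte and hepatoma markers 10 of 13 were measured, and 7 were lower in Huh7-R-A7 and 8 were lower and 1 higher in Huh7-R, with ALB at a mean of 15.4 in Huh7-R-A7 and 15.1 in Huh7-R, against 16.8 in Huh7-S. The mean of these markers per array lay between 9.92 and 10.89 in Huh7-R-A7, 10.71 and 11.25 in Huh7-R and 11.83 and 13.41 in Huh7-S. Of the fibroblast markers 2 of 7 were measured, COL1A2 and LUM, and both rose, with array means of 7.73 to 7.90 in Huh7-R-A7, 8.32 to 8.61 in Huh7-R and 5.28 to 5.48 in Huh7-S. In Huh7-S the means of both, 5.49 and 5.30, lay below noise. Of the leukocyte markers 2 of 7 were measured: CD68 rose by 4.17 in Huh7-R-A7 and 3.84 in Huh7-R, and LYZ differed by -1.84 and -0.92 without passing. Of the cholangiocyte markers 3 of 4 were measured: SOX9 differed by -2.95 in Huh7-R-A7 and -2.39 in Huh7-R and passed in both, EPCAM by 1.19 and 1.57 and passed in Huh7-R (adjusted p = 0.048), and KRT19 by 0.67 and 0.65 without passing. No endothelial marker was found in the deposited table under 1 symbol. Markers not measured are those absent in that way, and low signal was not told apart from other reasons. The part of these shifts in the results on long noncoding RNAs was not tested. In bulk RNA, fewer cells of a kind and less RNA per cell cannot be told apart.

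In Huh7-R-A7, 16 of the 160 long noncoding RNAs rose against Huh7-S and 27 fell at an adjusted p below 0.05 in limma, 26.9% of them, against 42.7% of all genes tested (18% higher and 24.6% lower). Huh7-R had 20 that rose against Huh7-S and 29 that fell, 30.6%, against 45.1% of all genes (19% higher and 26.2% lower). Against Huh7-S, 23 RNAs were lower in both resistant populations, 12 were higher in both and 103 passed in neither. Both comparisons share the parental arrays. Differences of at least 2-fold among those that passed were counted on the deposited values, also where a group lay below the noise level. They were seen for 2 RNAs that rose and 11 that fell in Huh7-R-A7 and for 4 that rose and 10 that fell in Huh7-R. For RNAs with a group mean below noise, such as LINC00941, the bound given below can be under 2-fold. The same count over all genes is not given here. The arrays of both groups did not overlap for 33.8% of the RNAs in Huh7-R-A7 against Huh7-S and 36.2% in Huh7-R against Huh7-S, against 52.4% and 53% of all genes. The median difference over the 160 was -0.01 in Huh7-R-A7 and 0.02 in Huh7-R, against -0.04 and -0.03 for all genes.

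**Figure D1:**
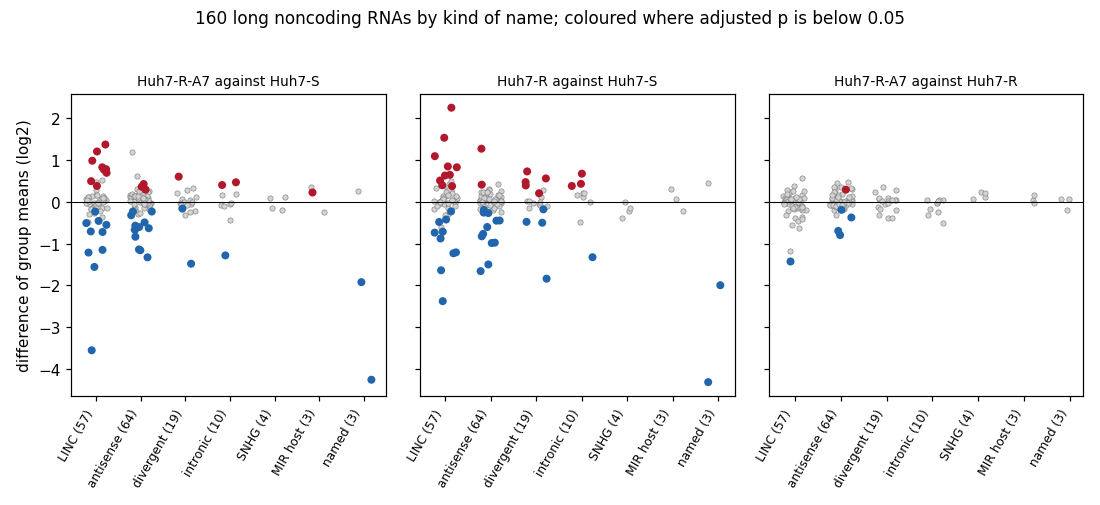
Difference of group means (log2, vertical axis) of each of the 160 long noncoding RNAs, by kind of name (number of genes in brackets), in 3 comparisons; red and blue points had an adjusted p below 0.05 and were higher or lower, grey ones did not pass. The lowest point is UCA1 at -4.26 in Huh7-R-A7 and -4.32 in Huh7-R against Huh7-S, and 6 points are coloured in Huh7-R-A7 against Huh7-R.

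The split between rises and falls depended on scaling, for all genes as for the RNAs studied. Of the 9792 genes, 1764 rose and 2413 fell in Huh7-R-A7 in the main fit. These counts were 2352 and 2093 with arrays centred on their median, and 2209 and 2174 with cyclic loess. In Huh7-R they were 1858 and 2563, 2429 and 2192, and 2340 and 2274 in the same order. With arrays centred on their median, 23 RNAs rose and 22 fell in Huh7-R-A7 and 29 rose and 21 fell in Huh7-R, and with cyclic loess these were 24 and 24, and 28 and 24. From clone array 1 alone, with the spread taken from the other groups, 15 rose and 9 fell in Huh7-R-A7. Among the calls lost in this comparison were those of UCA1, TMCC1-DT, EMC3-AS1, PLCB1-IT1, SH3BP5-AS1, SGO1-AS1, TMPO-AS1, LINC02035, LINC00662, LINC00969 and TTN-AS1. Some differences stayed about as large, at -1.27 for PLCB1-IT1, -1.25 for SH3BP5-AS1, -1.22 for LINC02035 and 0.53 for LINC00662, against -1.28, -1.14, -1.15 and 0.49 with all arrays.

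Of all genes, 18% rose and 24.6% fell in Huh7-R-A7, and 19% rose and 26.2% fell in Huh7-R. By kind of name, 9 of 57 LINC RNAs rose and 10 fell in Huh7-R-A7, and 10 rose and 10 fell in Huh7-R. Of the 64 antisense RNAs, 3 rose and 12 fell in Huh7-R-A7, and 2 rose and 12 fell in Huh7-R. Of the 19 divergent RNAs, 1 rose and 2 fell in Huh7-R-A7, and 5 rose and 4 fell in Huh7-R. Of the 10 intronic RNAs, 2 rose and 1 fell in Huh7-R-A7, and 3 rose and 1 fell in Huh7-R. No SNHG gene passed in either in the main fit, though SNHG21 did in Huh7-R with array weights and SNHG8 with the replicate block.

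UCA1, a long noncoding RNA high in several carcinomas, fell below the noise level in both resistant populations. Its signal was 4.62, 4.23 and 4.36 in Huh7-R-A7 and 4.39, 4.19 and 4.45 in Huh7-R, against 6.47, 9.83 and 9.69 in Huh7-S. All 6 resistant arrays lay below the noise level and all parental arrays above it, and parental array 1 lay between the resistant arrays and the other parental ones. The difference was -4.26 ± 0.80 (SE) in Huh7-R-A7 (adjusted p = 0.0035) and -4.32 ± 0.80 in Huh7-R (adjusted p = 0.0032), so UCA1 was at least 6.33-fold lower in either. Without parental array 1 the differences were -5.36 and -5.42, and with clone array 1 alone that of Huh7-R-A7 was -4.04 (adjusted p = 0.083).

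The genes outside the set whose 9 values correlated best with those of UCA1 were ETV4 (Pearson's r 0.996), ELFN1 (0.992), SNAP25 (0.991), RELN (0.989) and AFF3 (0.989). RELN had means of 4.64 in Huh7-R-A7 and 4.84 in Huh7-R, against 8.26 on parental array 1 and 11.1 on parental array 2. Each has lower values on parental array 1 than on the other parental arrays, as UCA1 does. These are descriptions over 9 arrays in 3 groups.

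LINC00351, an intergenic RNA between SLITRK1 and SLITRK6, had values of 6.00, 5.59 and 5.79 in Huh7-R-A7, 6.97 on all Huh7-R arrays, and 8.55, 9.97 and 9.52 in Huh7-S. The 3 groups did not overlap. It was at least 10.2-fold lower in Huh7-R-A7 (adjusted p = 8.3e-05) and 5.20-fold lower in Huh7-R (adjusted p = 0.00064). The difference of -1.18 between Huh7-R-A7 and Huh7-R missed the threshold (adjusted p = 0.061). It passed without parental array 1 (adjusted p = 0.0031), with only the 6 arrays compared (adjusted p = 0.0042), with array weights (adjusted p = 0.0014) and from replicates 2 and 3 (adjusted p = 0.012).

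HULC, abundant in hepatocellular carcinoma, had values of 7.14, 7.29 and 6.82 in Huh7-R-A7 and 7.04, 7.19 and 6.81 in Huh7-R, against 9.15, 9.41 and 8.47 in Huh7-S. Every resistant array lay below every parental one. It was 3.80-fold lower in Huh7-R-A7 (adjusted p = 0.00048) and 3.99-fold lower in Huh7-R (adjusted p = 0.0004). Without parental array 1 the differences were -1.85 and -1.93 on the log2 scale.

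LINC00261 had values of 9.40, 9.39 and 9.31 in Huh7-R-A7 and 9.26, 9.33 and 9.26 in Huh7-R, against 10.59, 11.15 and 11.03 in Huh7-S, a fall of 2.95-fold and 3.12-fold (adjusted p = 6.9e-05 and 5.9e-05). Its neighbour FOXA2 fell as well, by 0.49 in Huh7-R-A7 and 0.44 in Huh7-R on the log2 scale (adjusted p = 0.0026 and 0.0044). Both genes were thus lower on average in the resistant cells, LINC00261 by more on this scale.

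**Figure D2:**
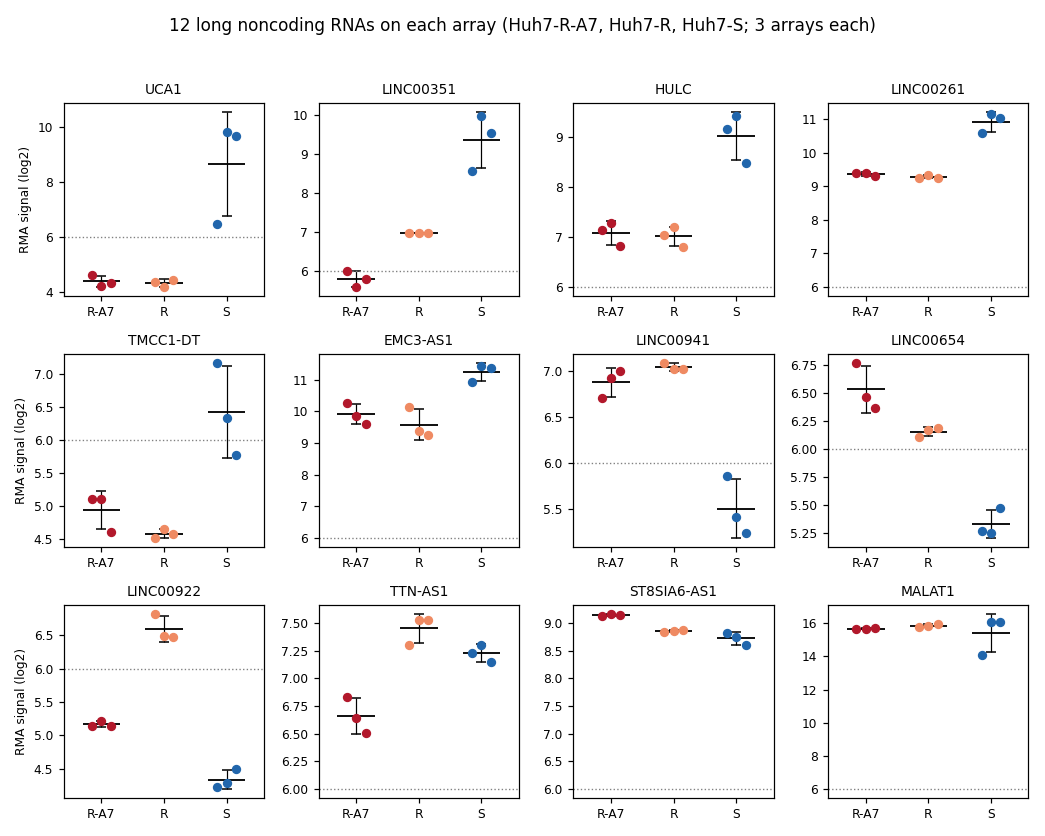
RMA signal (log2) of 12 long noncoding RNAs on each of 3 arrays of Huh7-R-A7 (R-A7), Huh7-R (R) and Huh7-S (S); points are arrays, lines group means, bars SD, and the dotted line the noise level of 6, with an own scale per panel. UCA1, LINC00351, HULC and LINC00261 are lower on all resistant arrays than on any parental one, LINC00922 is highest in Huh7-R, and parental array 1 lies far below the other parental arrays for UCA1 and MALAT1.

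Other LINC RNAs that fell were LINC00667, 2.32-fold lower in Huh7-R-A7 and 2.35-fold in Huh7-R, and LINC02035, 2.22-fold and 2.31-fold lower. LINC00667 ranged from 7.22 to 7.62 over the 6 resistant arrays, against 8.42 to 8.77 in Huh7-S. SLC49A4, a solute carrier gene and the nearest protein-coding gene before LINC02035, fell by 1.01 in Huh7-R-A7 and 0.91 in Huh7-R on the log2 scale (adjusted p = 0.022 and 0.031). FOXD2-AS1 lay at 5.15, 5.32 and 5.62 in Huh7-R-A7 and 5.69, 5.53 and 5.39 in Huh7-R, against 6.38, 6.78 and 6.42 in Huh7-S, at least 1.44-fold lower in both. FOXD2, the forkhead gene beside it, was not measured under 1 symbol.

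Among RNAs that rose against Huh7-S, LINC00941, described in several carcinomas, had values of 6.70, 6.92 and 7.00 in Huh7-R-A7 and 7.09, 7.01 and 7.01 in Huh7-R, against 5.86, 5.42 and 5.24 in Huh7-S. All resistant arrays lay above the noise level and all parental ones below it, at least 1.84-fold higher in Huh7-R-A7 and 2.05-fold in Huh7-R (adjusted p = 0.00027 and 0.00016). CAPRIN2, the nearest protein-coding gene before it, codes for an RNA-binding protein. It rose too, by 1.00 in Huh7-R-A7 and 0.93 in Huh7-R on the log2 scale (adjusted p = 0.00037 and 0.00055).

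LINC00654 had values of 6.77, 6.46 and 6.37 in Huh7-R-A7 and 6.11, 6.17 and 6.18 in Huh7-R, against 5.26, 5.25 and 5.47 in Huh7-S (adjusted p = 9.5e-05 and 0.00064). The 3 groups did not overlap, though the difference of 0.38 between Huh7-R-A7 and Huh7-R missed the threshold (adjusted p = 0.078, or 0.029 with array weights). GPCPD1, its neighbour, fell in Huh7-R by 0.63 (adjusted p = 0.0027) and differed by -0.29 in Huh7-R-A7 (adjusted p = 0.075).

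RSF1-IT1, named after the chromatin remodelling gene RSF1, ranged from 8.60 to 8.96 over the 6 resistant arrays, against 8.28 to 8.42 in Huh7-S, and rose 1.38-fold in Huh7-R-A7 and 1.35-fold in Huh7-R. RSF1 did not pass in either. LINC00674 rose 1.62-fold in Huh7-R-A7 and 1.80-fold in Huh7-R, and LINC00174 1.72-fold and 1.57-fold. TPST1, a sulfotransferase gene before LINC00174, rose by 0.91 in Huh7-R-A7 and 0.51 in Huh7-R on the log2 scale (adjusted p = 0.0014 and 0.020). LINC03124 ranged from 5.91 to 6.04 in Huh7-R-A7 and 6.17 to 6.35 in Huh7-R, against a mean of 5.18 in Huh7-S, so that the mean of Huh7-R alone lay above noise. LINC00662 rose 1.41-fold in Huh7-R-A7 and 1.42-fold in Huh7-R, but its call was lost in Huh7-R-A7 without parental array 2 or 3 or any clone array, and in Huh7-R without parental array 3 or pool array 2 or 3. LINC00960 passed in Huh7-R (at least 1.36-fold higher, adjusted p = 0.024), with values of 5.98, 6.12 and 5.97 in Huh7-R-A7, 6.55, 6.79 and 6.12 in Huh7-R, and 6.11, 5.83 and 5.62 in Huh7-S. Pool array 3 and parental array 1 lay at almost the same value, and leaving out parental array 2 or 3 or pool array 1 or 2 ended the call.

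LINC00312 overlaps LMCD1, which codes for a LIM-domain protein. It passed in Huh7-R-A7 (7.06, 6.03 and 6.25, against 5.19, 5.90 and 5.31 in Huh7-S, adjusted p = 0.023), at least 1.36-fold higher, and this call was lost without parental array 1 (adjusted p = 0.065) or 3 (adjusted p = 0.068). LMCD1 rose by 2.09 in Huh7-R-A7 (adjusted p = 0.011). In Huh7-R, LINC00312 differed by 0.42 (adjusted p = 0.25) and LMCD1 by 0.92 (adjusted p = 0.17).

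**Figure D3:**
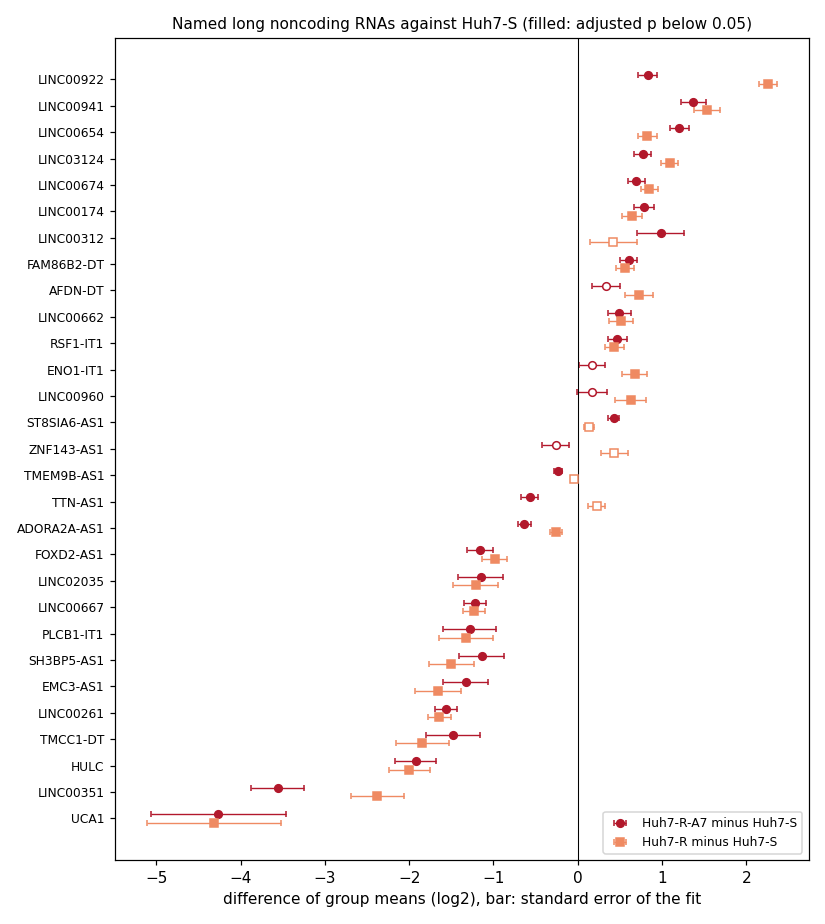
Difference from Huh7-S (log2, horizontal axis) of 29 long noncoding RNAs, for Huh7-R-A7 (red circles) and Huh7-R (orange squares); bars are standard errors of the fit and filled symbols had an adjusted p below 0.05. The 29 had the largest differences in any of the 3 comparisons among RNAs that passed there with arrays not overlapping. UCA1 has the widest error, 0.80, and LINC00922 lies at 0.83 in Huh7-R-A7 and 2.26 in Huh7-R.

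MALAT1, an abundant nuclear RNA of splicing speckles, did not pass: it had values of 15.66, 15.65 and 15.72 in Huh7-R-A7 and 15.76, 15.84 and 15.98 in Huh7-R, against 14.06, 16.10 and 16.05 in Huh7-S. Both resistant groups lay above parental array 1 and below the other parental arrays. The difference was 0.27 ± 0.49 (SE) in Huh7-R-A7 and 0.46 ± 0.49 in Huh7-R. Without parental array 1 it was -0.40 in Huh7-R-A7 (adjusted p = 0.0039) and -0.22 in Huh7-R (adjusted p = 0.045), so both the direction and the call for MALAT1 rested on that array.

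Antisense, intronic and divergent RNAs were set beside the gene they are named after, because such pairs can share a promoter or overlap. The gene was measured for 63 of 93 such RNAs, and no use of strand on this array is claimed for overlapping pairs. Among the 63, ENO1-IT1 and HNRNPU-AS1 are now listed under the symbol of the gene itself. Between Huh7-R-A7 and Huh7-S, 16 of the 63 RNAs and 35 of the 63 genes passed, where 42.7% of all genes did. Of the 9 pairs in which both passed, 2 rose together, 5 fell together and 2 went opposite ways. Between Huh7-R and Huh7-S, 21 RNAs and 39 genes passed, where 45.1% of all genes did. Of the 16 pairs in which both passed, 5 rose together, 8 fell together and 3 went opposite ways. With values below 6 raised to 6, 12 went the same way and 3 opposite ways. In 1, that of ANKRD42-DT, the gene then did not differ. In 26 pairs in Huh7-R-A7 and 23 in Huh7-R the gene alone passed.

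TMCC1-DT starts 160 bases from TMCC1, an endoplasmic reticulum membrane protein gene, on the opposite strand. The RNA had values of 5.11, 5.11 and 4.61 in Huh7-R-A7 and 4.52, 4.65 and 4.58 in Huh7-R, against 7.17, 6.33 and 5.78 in Huh7-S (adjusted p = 0.0069 and 0.0024), at least 1.34-fold lower. TMCC1 fell by 0.77 in Huh7-R-A7 and 0.58 in Huh7-R on the log2 scale (adjusted p = 0.0005 and 0.0021). TMPO-AS1 starts 636 bases from TMPO, which codes for a protein of the nuclear lamina. TMPO-AS1 lay between 6.26 and 6.50 in Huh7-R-A7 and 6.22 and 6.60 in Huh7-R, against 6.82 and 7.35 in Huh7-S, and TMPO fell by 0.69 and 0.76.

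SGO1-AS1 had values of 5.67, 5.49 and 5.34 in Huh7-R-A7 and 5.80, 5.72 and 5.19 in Huh7-R, against 6.40, 6.48 and 6.12 in Huh7-S. SGO1, which protects the cohesion of sister chromatids, fell by 1.34 in Huh7-R-A7 and fell by 1.66 in Huh7-R (adjusted p = 0.0019 and 0.0007). PLCB1-IT1 ranged from 5.46 to 5.82 over the resistant arrays, against 6.13 to 7.40 in Huh7-S, and PLCB1, a phospholipase C gene, fell by 0.49 and 0.85. PCNA-AS1 was at least 1.52-fold lower in Huh7-R (adjusted p = 0.031) together with PCNA, the DNA polymerase clamp, which fell by 1.08. Without parental array 1 PCNA-AS1 did not pass (adjusted p = 0.058), and leaving out parental array 2 or pool array 2 or 3 ended its call as well. In Huh7-R-A7 it passed with the replicate block (adjusted p = 0.038, against 0.077 without it).

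TTC28-AS1 was at least 1.09-fold lower in both, and TTC28 fell by 0.54 in Huh7-R-A7 and 0.63 in Huh7-R. USP46-DT was at least 1.23-fold lower in Huh7-R, where USP46, a deubiquitinase gene, fell by 1.11, and this call was lost without parental array 1 or 2 or pool array 1 or 3.

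Pairs that rose together were fewer. WWTR1-IT1 lay between 8.95 and 9.21 on the 6 resistant arrays, against 8.48, 8.78 and 8.77 in Huh7-S, and WWTR1, the Hippo pathway coactivator TAZ, rose by 0.46 and 0.40. AFDN-DT was at least 1.15-fold higher in Huh7-R (adjusted p = 0.0085), and AFDN, which codes for the junction protein afadin, rose by 1.30 on the log2 scale. ENO1-IT1, from the enolase gene, rose in Huh7-R by 0.67 (adjusted p = 0.0081) and ENO1 by 0.31. Under current names both are the same gene. In Huh7-R-A7, AFDN rose by 1.17, and AFDN-DT had a mean below noise in both groups (adjusted p = 0.14, or 0.046 with the replicate number as a block). CHKB-AS1 rose 1.22-fold in Huh7-R-A7 beside CHKB, a choline kinase gene, and ANKRD42-DT 1.15-fold in Huh7-R beside ANKRD42. ANKRD42 itself had a mean below noise in both groups, at 5.81 in Huh7-R and 5.58 in Huh7-S. The call of CHKB-AS1 was lost without parental array 2 or 3 or clone array 2, and that of ANKRD42-DT when any of 7 arrays was left out. VCAN-AS1 had values of 5.46, 6.27 and 5.87 in Huh7-R-A7 and 5.55, 6.47 and 5.81 in Huh7-R, against 5.59, 4.23 and 4.19 in Huh7-S. Its parental array 1 overlapped the resistant arrays, and the call in Huh7-R (adjusted p = 0.041, or 0.07 with the block) was lost when any of 7 arrays was left out. VCAN, the matrix proteoglycan versican, rose by 3.08 in Huh7-R-A7 and 2.99 in Huh7-R.

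**Figure D4:**
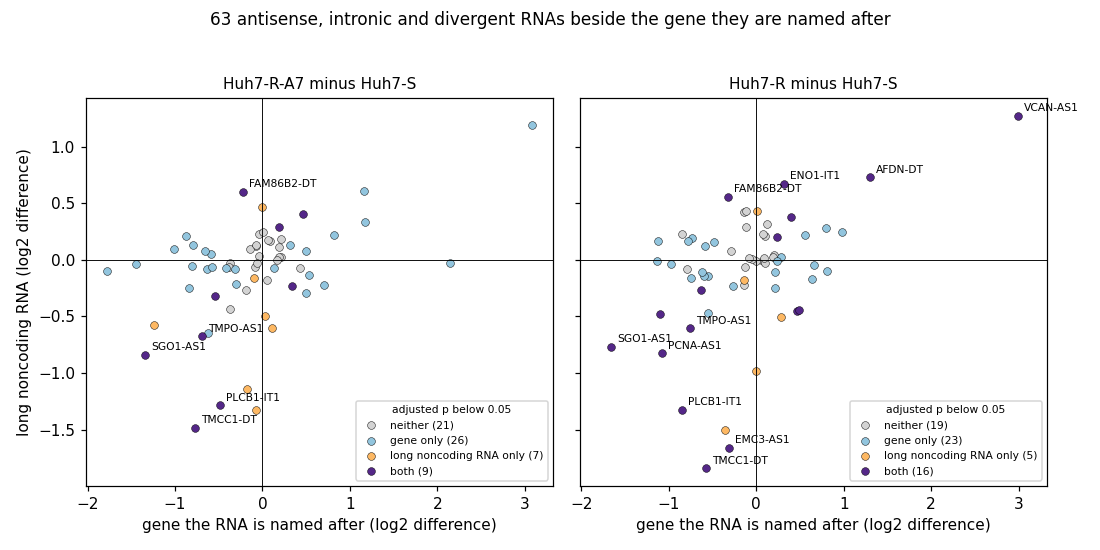
Difference from Huh7-S (log2) of 63 antisense, intronic and divergent RNAs (vertical axis) against that of the gene each is named after (horizontal axis), in Huh7-R-A7 (left) and Huh7-R (right); colours show which of the pair had an adjusted p below 0.05, with counts in the key. Both passed in 9 pairs on the left and 16 on the right, and the gene alone passed in 26 and 23.

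Opposite directions were seen for FAM86B2-DT, which rose at least 1.41-fold in Huh7-R-A7 and at least 1.37-fold in Huh7-R, while FAM86B2 fell by 0.23 and 0.33 on the log2 scale. In Huh7-R-A7, TMEM9B-AS1 fell by 0.23 (adjusted p = 0.0034) and TMEM9B rose by 0.34 (adjusted p = 0.030). PITPNA-AS1 fell in Huh7-R by 0.45 (adjusted p = 0.025), and PITPNA, a phosphatidylinositol transfer protein gene, rose by 0.46. The call of PITPNA-AS1 was lost without parental array 1 (adjusted p = 0.056) or 2 or pool array 2 or 3, and in Huh7-R-A7 it passed with the replicate block (adjusted p = 0.0084, against 0.11 without it). TAPT1-AS1 fell in Huh7-R-A7 by 0.60 and in Huh7-R by 0.45, and TAPT1 rose in Huh7-R by 0.48. Leaving out parental array 2 or 3 or pool array 1 ended the call of TAPT1-AS1 in Huh7-R.

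Large falls were also seen where the gene of the pair changed little. EMC3-AS1 lay at 10.26, 9.86 and 9.62 in Huh7-R-A7 and 10.13, 9.37 and 9.25 in Huh7-R, against 10.91, 11.44 and 11.37 in Huh7-S, 2.51-fold lower in Huh7-R-A7 (adjusted p = 0.0054) and 3.16-fold in Huh7-R (adjusted p = 0.0018). EMC3, a subunit of the membrane protein insertion complex, differed by -0.07 in Huh7-R-A7 (adjusted p = 0.48) and fell by 0.31 in Huh7-R. SH3BP5-AS1 was 2.20-fold lower in Huh7-R-A7 and at least 2.24-fold lower in Huh7-R, and SH3BP5 differed by -0.18 and -0.36 (adjusted p = 0.48 and 0.15). Without parental array 1, SH3BP5-AS1 was higher in Huh7-R-A7 than in Huh7-R (adjusted p = 0.038, against 0.49 with it). CAPN7, the calpain gene before SH3BP5-AS1, fell by 1.40 and 1.41.

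In the other direction, genes with clear changes had antisense or divergent RNAs that did not pass. ZEB1, a repressor of epithelial genes, fell by 0.66 in Huh7-R-A7 and 1.14 in Huh7-R, and ZEB1-AS1, which starts 107 bases away on the opposite strand, differed by 0.08 and -0.01. OIP5 fell by 1.02 and 1.12, and OIP5-AS1 differed by 0.10 and 0.17. DAPK1, a death-associated kinase gene, fell by 1.78 in Huh7-R-A7 but rose by 0.56 in Huh7-R, and DAPK1-IT1 differed by -0.10 and 0.22, passing in Huh7-R with the replicate block (adjusted p = 0.029). In Huh7-R-A7 against Huh7-R, DAPK1 was lower by 2.33, and DAPK1-IT1 differed by -0.32 (adjusted p = 0.12, or 0.031 with the replicate block).

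Starts on opposite strands within 1000 bases of each other were listed for 28 of the 46 pairs with both starts known. Among these 28, both members of a pair passed and moved the same way in 2 pairs in Huh7-R-A7 and 5 in Huh7-R, and 13 and 11 had only the gene passing. Among the other 18, these were 2 and 4 pairs, and 8 and 7.

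Host genes were set beside the small RNA genes that lie inside them in RefSeq, which gave 22 small RNAs in 12 RNAs, 9 of them measured, in 6 hosts. SNHG17 hosts the SNORA71 RNAs, H/ACA guides that direct the change of uridine to pseudouridine in ribosomal RNA. SNHG17 lay between 7.41 and 7.86 on the 6 resistant arrays, against 7.51 on all Huh7-S arrays, and did not pass in the main fit. Its difference in Huh7-R-A7 was 0.11 with all arrays and 0.35 from clone array 1 alone. SNORA71A lay at 14.69, 14.65 and 14.73 in Huh7-R-A7 and 14.46, 14.23 and 14.23 in Huh7-R, against 13.49, 13.57 and 13.18 in Huh7-S. It rose by 1.28 ± 0.11 (SE) in Huh7-R-A7 and 0.89 ± 0.11 in Huh7-R (adjusted p = 8.3e-05 and 0.00051). SNORA71C rose by 1.19 and 1.14 (adjusted p = 0.0088 and 0.010), and SNORA71D by 0.67 in Huh7-R-A7 (adjusted p = 0.011). SNORA71D in Huh7-R (0.40, adjusted p = 0.073) and SNORA71B in Huh7-R-A7 (0.53, adjusted p = 0.093) and Huh7-R (0.41, adjusted p = 0.18) did not pass. The SNORA71 copies are closely alike in sequence, so their probe sets may share signal.

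SNHG8 differed by -0.19 in Huh7-R-A7 and -0.39 in Huh7-R (adjusted p = 0.54 and 0.20, the second being 0.019 with the replicate block), SNHG21 by -0.14 and -0.21, and SNHG33 by 0.10 and -0.14. Neither SNORA24, inside SNHG8, nor SCARNA15, inside SNHG21, passed.

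Mature microRNAs from the hosts are printed to show what these RNAs can give rise to, 5′ to 3′ from RefSeq (GRCh38.p14), with the seed, bases 2 to 8, in capitals. The 5p products of MIR181A1 and MIR181B1, both inside MIR181A1HG, share 1 seed. 3 more come from MIR99AHG, and miR-570-3p from the gene inside LINC00969.
hsa-miR-181a-5p: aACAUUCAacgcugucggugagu
hsa-miR-181b-5p: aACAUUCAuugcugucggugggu
hsa-miR-99a-5p: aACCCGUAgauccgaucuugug
hsa-let-7c-5p: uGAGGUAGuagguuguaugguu
hsa-miR-125b-5p: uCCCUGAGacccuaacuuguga
hsa-miR-570-3p: cGAAAACAgcaauuaccuuugc
MIR181A1HG had values of 6.84, 6.36 and 6.44 in Huh7-R-A7 and 6.40, 6.45 and 6.63 in Huh7-R, against 5.74, 6.40 and 6.40 in Huh7-S, and did not pass (adjusted p = 0.18 and 0.24). MIR181B1 lay at 7.41, 7.05 and 6.81 in Huh7-R-A7 and 7.05, 7.36 and 7.53 in Huh7-R, against 5.59, 6.42 and 6.49 in Huh7-S. It rose by 0.92 in Huh7-R-A7 (adjusted p = 0.024) and 1.15 in Huh7-R (adjusted p = 0.0094). The array measures long total RNA, and whether this probe set reads the precursor or the mature form is not known here.

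LINC00969 fell by 0.51 in Huh7-R-A7 and 0.48 in Huh7-R (adjusted p = 0.011 and 0.014), and MIR570 by 0.50 in Huh7-R-A7 (adjusted p = 0.022) with a difference of -0.23 in Huh7-R (adjusted p = 0.21). MIR99AHG had values of 7.05, 6.81 and 7.09 in Huh7-R-A7, against 6.81, 6.74 and 6.72 in Huh7-S. It rose by 0.23 (adjusted p = 0.040), and the call was lost when any of 7 arrays was left out. MIR3171HG did not pass in the main fit, but was lower in both with array weights (adjusted p = 0.013 in Huh7-R-A7 and 0.029 in Huh7-R).

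**Figure D5:**
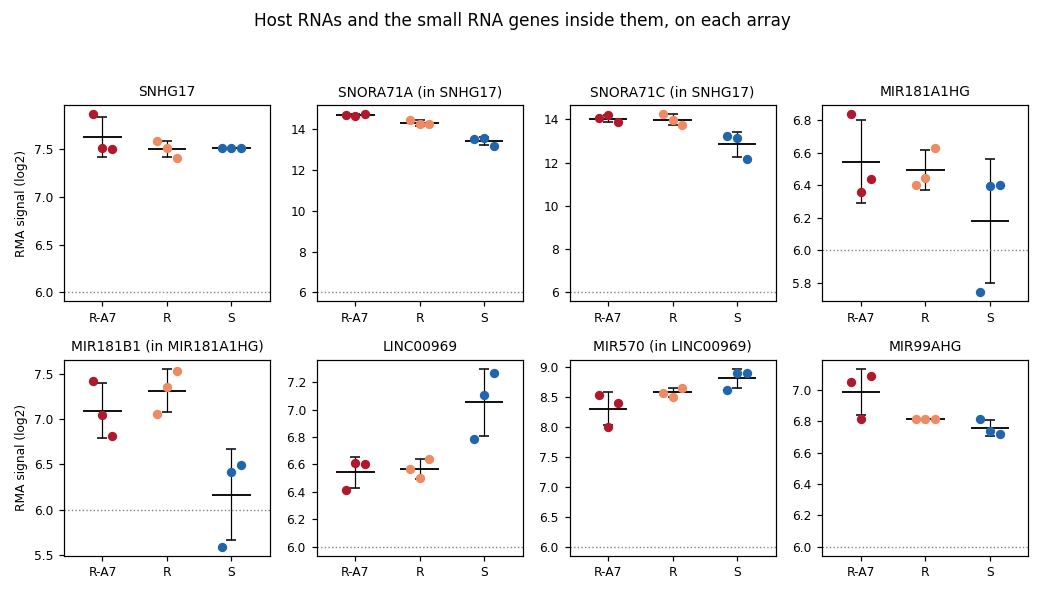
RMA signal (log2) of host RNAs and of small RNA genes inside them on each of 3 arrays of Huh7-R-A7 (R-A7), Huh7-R (R) and Huh7-S (S); points are arrays, lines group means, bars SD, the dotted line the noise level of 6, with an own scale per panel. SNORA71A lies at 14.23 or above on all resistant arrays and at 13.57 or below on parental arrays, while SNHG17 overlaps between groups.

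In Huh7-R-A7 against Huh7-R, 1 long noncoding RNA was higher and 5 were lower (3.75%), against 8.62% of all genes (4.11% higher and 4.51% lower), and 23.8% had arrays that did not overlap, against 31.4% of all genes. With the replicate number as a block these counts were 2 higher and 6 lower, without parental array 1 they were 3 and 8, and from clone array 1 alone 0 and 1.

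LINC00922, an intergenic RNA between the cadherin genes CDH11 and CDH5 and lower in the clone than in the pool, had values of 5.15, 5.22 and 5.13 in Huh7-R-A7, against 6.82, 6.49 and 6.47 in Huh7-R, and 4.23, 4.29 and 4.49 in Huh7-S. The 3 groups did not overlap, and only Huh7-R lay above the noise level. It was at least 1.51-fold lower in Huh7-R-A7 than in Huh7-R (-1.43 ± 0.11 SE on the log2 scale, adjusted p = 0.00038), and at least 1.51-fold higher in Huh7-R than in Huh7-S (adjusted p = 5.1e-06). Neither cadherin gene was measured under 1 symbol.

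TTN-AS1, transcribed opposite the titin gene, had values of 6.83, 6.64 and 6.50 in Huh7-R-A7, against 7.30, 7.53 and 7.53 in Huh7-R and 7.23, 7.31 and 7.15 in Huh7-S. It was 1.74-fold lower in Huh7-R-A7 than in Huh7-R (adjusted p = 0.0035) and 1.49-fold lower than in Huh7-S (adjusted p = 0.0025), and Huh7-R against Huh7-S did not pass (adjusted p = 0.10), but did when centred on the median or with cyclic loess (adjusted p = 0.037 in both) and with quantile normalization or array weights (adjusted p = 0.046 in both). From clone array 1 alone the TTN-AS1 difference from Huh7-R was -0.62 (adjusted p = 0.069). TTN differed by -0.40 between Huh7-R-A7 and Huh7-R (adjusted p = 0.83). ADORA2A-AS1, opposite an adenosine receptor gene, lay at 6.85, 6.88 and 6.99 in Huh7-R-A7, against 7.29, 7.28 and 7.28 in Huh7-R and 7.37, 7.63 and 7.62 in Huh7-S, so that the pool lay between the clone and the parental cells.

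ZNF143-AS1 had values of 5.57, 5.99 and 5.77 in Huh7-R-A7, against 6.15, 6.77 and 6.51 in Huh7-R and 6.00, 6.08 and 6.04 in Huh7-S. The clone lay below and the pool above the parental arrays. It was at least 1.39-fold lower in Huh7-R-A7 than in Huh7-R (adjusted p = 0.038), and neither comparison with Huh7-S passed. Huh7-R against Huh7-S did pass for ZNF143-AS1 with the replicate block (adjusted p = 0.017), with array weights (adjusted p = 0.018), centred on the median (adjusted p = 0.033) and with cyclic loess (adjusted p = 0.043). TMEM9B-AS1 was lower in Huh7-R-A7 than in Huh7-R by 0.19 (adjusted p = 0.034, or 0.052 with the replicate block). TMEM9B differed by -0.33 in the same comparison (adjusted p = 0.096). Against Huh7-S, TMEM9B-AS1 fell by 0.23 in Huh7-R-A7 (adjusted p = 0.0034, or 0.079 with arrays centred on their median). TMEM9B rose against Huh7-S by 0.34 in Huh7-R-A7 and 0.66 in Huh7-R.

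ST8SIA6-AS1, opposite a sialyltransferase gene, was the RNA higher in the clone than in the pool. It had values of 9.13, 9.16 and 9.15 in Huh7-R-A7, against 8.83, 8.86 and 8.88 in Huh7-R and 8.82, 8.75 and 8.60 in Huh7-S. It rose by 0.29 ± 0.06 (SE) in Huh7-R-A7 against Huh7-R (adjusted p = 0.028). Without parental array 1 it passed in Huh7-R against Huh7-S as well (adjusted p = 0.028, against 0.11 with it). VIM, the nearest protein-coding gene before it and coding for the intermediate filament vimentin, rose by 0.66 in the same comparison (adjusted p = 0.0088) and by 1.34 in Huh7-R-A7 against Huh7-S.

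Genes that work with long noncoding RNAs or that lie outside the naming rule were counted from lists, beside a median difference of -0.04 over all genes in Huh7-R-A7 and -0.03 in Huh7-R. Of paraspeckle proteins, which assemble on NEAT1, 5 of 9 measured fell in Huh7-R-A7 and 6 in Huh7-R and none rose, where 24.6% and 26.2% of all genes fell, with medians of -0.38 and -0.36. HNRNPH3 fell by 0.38 in Huh7-R-A7 and 0.59 in Huh7-R, and TARDBP by 0.47 and 0.39. Of proteins of the small nucleolar particles, 1 of 10 rose and 2 fell in Huh7-R-A7 and 3 fell in Huh7-R, with RUVBL1, an assembly ATPase, lower by 0.78 and 1.02 and NOP58, a core protein, by 0.58 and 0.93.

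Of 4 microRNA processing genes measured, PRKRA, a partner of Dicer, fell by 0.25 in Huh7-R-A7 and rose by 0.39 in Huh7-R, and XPO5, which exports precursors, fell by 0.60 in Huh7-R. Of 5 other microRNA hosts, 3 fell in both: CTDSPL differed by -1.99 in Huh7-R-A7 and -1.22 in Huh7-R, MCM7 by -1.27 and -1.31, and PANK3 by -0.68 and -0.74. Of 3 other snoRNA hosts, NCL, the nucleolin gene, fell by 0.62 and 0.92, and DANCR in Huh7-R by 0.74. Of 14 other noncoding RNAs measured, 1 fell in Huh7-R-A7, and 1 rose and 2 fell in Huh7-R. TERC, the RNA of telomerase, was lower by 1.24 in Huh7-R-A7 (adjusted p = 0.001) and 0.57 in Huh7-R (adjusted p = 0.041), and LUCAT1 rose in Huh7-R by 0.51.

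The deposited values limit the precision of the smallest differences. Of the 160 RNAs, 90 (56.2%) had exactly the same value on at least 2 arrays, against 59.9% of all genes, as LINC00351 on the Huh7-R arrays and SNHG17 on those of Huh7-S. Their fitted spread may be too small.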

How the data were processed

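Total RNA of 9 cultures, 3 per group, was hybridised to Affymetrix Human Transcriptome Array 2.0, which reads long transcripts. The deposited log2 values were made by the authors with RMA in Affymetrix Expression Console, for which neither version nor genome build is given in the sources used here. In all, the table held 11013 probe sets, of which 9851 had 1 symbol, 624 several and 538 none in the platform annotation. Array medians lay between 8.22 and 8.38, and no further scaling was applied. The filter of the authors' methods, more than 85% of arrays below log2 6, removed no probe set. None in the deposited table had more than 7 of the 9 arrays below 6, as after such a filter. RNAs low on more arrays are thus absent. UCA1, below 6 on all 6 resistant arrays, could be in such a table only through its parental values. Array data hold no counts, so the number of arrays limits the precision.

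Probe sets of 1 symbol were averaged, which gave 9792 genes. One linear model of the 3 groups was fitted in limma 3.58.1 under R 4.3.3 (lmFit, then eBayes allowing for a trend with intensity), which left 6 residual degrees of freedom. Two-sided p-values were adjusted after Benjamini and Hochberg across the 9792 genes. A gene passed at an adjusted p below 0.05. Where 1 group mean lay below 6, its values below 6 were raised to 6 and the fold was given as "at least", and no fold was given where both lay below. Tables and figures used Python 3.11.15, pandas 2.3.3 and matplotlib 3.10.9, and the fit was tested on simulated data. Promoters, microRNAs, gene order and current names came from RefSeq (GRCh38.p14), and 113 of the 160 RNAs had a promoter there.

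RNAs named are, per comparison, the 10 largest rises and 10 largest falls that passed with arrays not overlapping, the RNAs named in the rule, all host genes, pairs in which both passed, and neighbours or pair genes with large changes, chosen after their values were seen. The RNAs and lists were chosen with earlier results of these data known. Same-numbered arrays of Huh7-R-A7 and Huh7-R deviated together (r = 0.6, 0.49 and 0.42 over all genes), and those of Huh7-S with neither (-0.21 to 0.1), so the replicate number was tried as a block. The methods speak of biological replicates per cell type, and p-values measure the spread between cultures of single populations. Alternatives were the normalization, threshold, filter, variance prior, array weights, symbols, probe sets, block and each array left out.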

Additional observations from a re-analysis of the deposited data

Results flagged for a closer look

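The clone and the pool differed from each other, by a test of the difference itself, in 6 of the long noncoding RNAs, each in Huh7-R-A7 against Huh7-R on the log2 scale. LINC00922, below noise in the clone and thus at least 1.51-fold lower, differed by -1.43, TTN-AS1 by -0.80, ZNF143-AS1 by -0.70, ADORA2A-AS1 by -0.37, TMEM9B-AS1 by -0.19 and ST8SIA6-AS1 by 0.29. Only LINC00922 and TTN-AS1 kept the call whichever of the 9 arrays was left out. From clone array 1 alone LINC00922 was the single RNA to pass.

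Signal was also seen in 44 probe sets that carry several symbols, at least 1 of them of the kind studied, and that entered no comparison of the report. Tested with all 11013 probe sets, 16 of the 44 passed in Huh7-R-A7 against Huh7-S (7 higher, 9 lower), where 42.5% of all probe sets did. In Huh7-R against Huh7-S 23 passed (9 higher, 14 lower), against 44.7% of all. Which of the symbols such a probe set reads is not known here.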

How the results depend on the processing

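Counts are given as higher and lower. With adjusted p below 0.01 they were 8 and 18 in Huh7-R-A7 against Huh7-S, 10 and 15 in Huh7-R against Huh7-S, and 0 and 2 in Huh7-R-A7 against Huh7-R. All genes then gave 1200 and 1581, 1242 and 1681, and 163 and 168. At the authors' limits (p below 0.0001 and a fold over 3 or under 0.25) the RNAs gave 0 and 1, 1 and 1, and 0 and 0 in the same order of comparisons. All genes gave 183 and 94, 183 and 69, and 8 and 7. With array weights the counts of all genes were 2208 and 3316, 2247 and 3420, and 1292 and 1185. Those of the RNAs were 19 and 40, 28 and 40, and 10 and 16. From clone array 1 alone they were 15 and 9, 13 and 21, and 0 and 1, and from replicates 2 and 3, chosen after seeing the data, 15 and 29, 24 and 27, and 4 and 10. Counts of all genes from replicates 2 and 3 were 2037 and 2602, 2195 and 2868, and 970 and 843. The 70 RNAs with 9 different values gave 14 and 22, 17 and 19, and 0 and 3. The 3926 genes of that kind gave 1064 and 1479, 1118 and 1535, and 162 and 220. Fits of the 6 arrays compared gave 13 and 25, 13 and 21, and 3 and 6 for the RNAs. Those of all genes were 1528 and 2117, 1583 and 2129, and 531 and 632. With the replicate block the RNAs gave 18 and 30, 22 and 29, and 2 and 6. All genes then gave 1832 and 2534, 1901 and 2671, and 500 and 512. Centring on the median gave 2 RNAs higher in Huh7-R-A7 than in Huh7-R, and quantile normalization 3, where 446 and 498 of all genes were higher. With each array left out in turn, counts ranged from 13 to 17 and 22 to 31, from 14 to 22 and 19 to 29, and from 0 to 3 and 2 to 8. The lowest of 19 came without parental array 2 and the highest of 3 and 8 without parental array 1. Of the calls, 31 of 43, 29 of 49 and 2 of 6 were kept in all 9 of these.

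MALAT1 reversed. In Huh7-R-A7 against Huh7-S it lay between -0.40 and 0.62 over arrays left out, and at -0.39 from replicates 2 and 3. In Huh7-R against Huh7-S it lay between -0.22 and 0.80. With replicate block, SNHG8 passed in Huh7-R against Huh7-S (adjusted p = 0.019), DAPK1-IT1 and BAIAP2-DT in Huh7-R-A7 against Huh7-R (adjusted p = 0.031 and 0.049), and TMEM9B-AS1 did not (adjusted p = 0.052). The causes were not tested. Signals near the noise level limit what can be seen: 24 of the 160 RNAs had a mean below it in Huh7-R-A7.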
